A study of Mus musculus with 163 samples.

Results

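The Agrp-high neurons are the 48 sorted hypothalamic cells, 29.4% of all that were profiled, whose level of the agouti-related peptide gene Agrp (ENSMUSG00000005705, GRCm38 chromosome 8, 105566699 to 105568298) was at least 10 log2RPM, the logarithm to base 2 of RPM, the reads of a gene scaled to a fixed library size of 1e6 reads. They were chosen by that value alone, so Agrp and every gene that follows it against the other neurons is given here as a description, without a test. All cells came from the medial basal hypothalamus of C57/BL6 mice of the Tg(Pomc-EGFP)1Low strain, which carry enhanced GFP under Pomc regulatory sequences, and were sorted as GFP-positive cells, so an AgRP neuron was in the sort only where this transgene was active. The mice were described as male, aged 7 to 9 weeks and fed ad libitum, and no cell received a treatment. The lowest Agrp levels inside the limit were 10.12, 10.29 and 10.45 log2RPM. The highest outside it were 9.99, 7.15 and 6.82 log2RPM, so 1 cell, with Npy at 11.22 log2RPM, lay close below the limit and no other lay near it.

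AgRP neurons of the arcuate nucleus drive feeding. They release AgRP, an inverse agonist of melanocortin receptors, together with neuropeptide Y and the inhibitory transmitter GABA, and they oppose the neighbouring neurons that make pro-opiomelanocortin (POMC). They are excited by ghrelin through the receptor encoded by Ghsr and restrained by leptin and insulin through the receptors encoded by Lepr and Insr. Part of the AgRP neurons descend from progenitors that had expressed Pomc.

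Each cell was sorted into its own well and gave 1 library. Since the labels tie no cell to an animal or a plate, the cells stand as 1 sample, every SD is the spread over cells, and no p-value was computed. Expression of a gene in a neuron means 5 RPM or more on the linear scale (2.32 log2RPM). The 48 neurons had about 1976000 to 21110000 reads over the 12187 genes (median 8519000) and 5767 to 8010 expressed genes each (mean 7251 ± 511), and the rho between depth and number of genes was 0.03. The correlation of log2RPM between any pair of the 48 lay between 0.56 and 0.74, so no library was a copy of another. The numbers in the cell titles fall into 3 ranges that were set after values had been seen, and 32 of the neurons were among cells 1 to 66, 5 among cells 67 to 98 and 11 among those from 99 on. Among genes expressed in only some of the neurons, values under the cut-off were at the floor of -0.91 log2RPM, which stands for 0 reads, in 9.97%, 61% and 22.6% of cases in the 3 ranges. Low values were therefore most often above 0 reads in cells 1 to 66. The source of these low values was not tested.

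The mice were described as male, but Y-linked genes were low in 13 libraries. In them all 4 measured genes of the male-specific Y chromosome, Ddx3y, Eif2s3y, Kdm5d and Uty, were at or below 2.64 log2RPM, whereas in each of the other 35 neurons at least 1 of the 4 reached 5.55 log2RPM. Ddx3y, an RNA helicase, had a lowest, median and highest level of 0.32, 1.64 and 2.64 log2RPM in the 13, and a median of 7.61 log2RPM in the 35. All 13 were among cells 1 to 66, as were 18 of the 19 other neurons of that kind. The cause of the low levels was not tested, and the labels tie no cell to an animal. The histone demethylase Kdm6a, an X-linked gene known to escape X inactivation, was expressed in 9 of the 13 and 13 of the 35 (medians 3.34 and 0.56 log2RPM). Agrp and Npy were similar in the 13 and the 35 (medians 11.66 and 11.58 log2RPM for Agrp, 13.14 and 13.26 log2RPM for Npy). Of 29 shares of expressing neurons recomputed without the 13, only that of Ddx3y left the interval given by all 48, rising from 66.7% to 85.7%. This rise follows from the choice of the 13, which used Ddx3y itself. The counts of genes given below as found in nearly all of the neurons, on in only some and higher than in the other neurons became 2612, 4547 and 1032 without the 13, and that of gene pairs with a rho of at least 0.7 became 1877.

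The markers of AgRP neurons were present. All 14 genes of the marker list were measured and expressed in at least 12 of the 48 neurons, 7 of them in at least 46, and all 14 had a mean at least 1 log2RPM above that in the other neurons, as the choice by Agrp favours. Npy (chromosome 6, 49822709 to 49829507) had a lowest, median and highest level of 9.99, 13.21 and 14.79 log2RPM, and was expressed in every neuron. Gad1 and Gad2, the enzymes that make GABA, were expressed in 48 and 47 of the neurons, and the vesicular GABA transporter Slc32a1 in 23. Acvr1c, an activin receptor, was expressed in 47 of 48 (7.19 ± 1.77 log2RPM) and in 27% of the other neurons. The receptor gene Ghsr was expressed in 29 of 48 (60.4%, 95% interval 45.3% to 74.2%), the homeobox factor Otp in 27 of 48 (56.2%, 95% interval 41.2% to 70.5%, but 1 at 32 RPM or more) and the serine protease Corin in 17 of 48 (35.4%, 95% interval 22.2% to 50.5%). These intervals are of the Clopper-Pearson kind and cover counting error only. In the other neurons the same 3 genes were expressed in 6.96%, 1.74% and 0.87% of cells.

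Pomc (chromosome 12, 3954950 to 3960618), the gene whose regulatory sequences drive the GFP, was expressed in every Agrp-high neuron, with a lowest, median and highest level of 4.56, 6.47 and 8.57 log2RPM. Cartpt, which encodes the CART peptide, was expressed in 46 of 48 and ranged widely (0.92 to 11.85 log2RPM, SD 2.63). Within the 48 neurons the rho of Pomc with Agrp was 0.09, but -0.14 in cells 1 to 66 and 0.62 in the 11 neurons from 99 on. The rho of Pomc with Cartpt was 0.21, whereas over the other neurons the rho of Pomc and Cartpt was 0.57. Cited1, a transcriptional co-regulator, was expressed in all 48 with little spread (10.53 ± 0.37 log2RPM), and Tbx3 in 45 of 48. Prdm12, Nhlh2 and Nkx2-1, transcription factors of POMC neurons, reached the cut-off in 0 of 48, which by a limit of 3 counts allows a share of expressing neurons of up to 6.25%, and in 18.3%, 33% and 63.5% of the others.

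Most markers of other cell types were expressed in few of the neurons, and those of myelin in more. Markers of microglia and endothelial cells were not analysed here. Of the astrocyte list, Slc1a3 and S100b were measured, and of precursor cells Olig1 and Pdgfra, and none was expressed in more than 5 of the neurons. The summed level of the 2 astrocyte genes ranged from 1.06 to 423 RPM. Of tanycyte markers, Vim was expressed in 20, Rax in 6 and Col23a1 in 3, and of pituitary markers Prl in 3, Tbx19 in 1 and Pou1f1 in none. Of 6 oligodendrocyte markers 4 were measured. Mbp was expressed in 41 of 48 neurons and in 73.9% of the others, Mobp in 3 of 48 and Mag in 18 of 48. Mag reached 7.07 log2RPM and was expressed in 11.3% of the other neurons. The summed level of the 4 ranged from 2.13 to 578 RPM in the 48 (median 77.3 RPM) and had a median of 49.2 RPM in the others. In 6 neurons 3 of the 4 were expressed. No doublet caller was run, since a singlet gate and 1 cell per well preceded the libraries. The vesicular glutamate transporter Slc17a6 was expressed in 13 of 48, at up to 5.55 log2RPM, and the neurokinin B gene Tac2 in 1. The part of other cells in any result below was not tested.

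**Figure D1:**
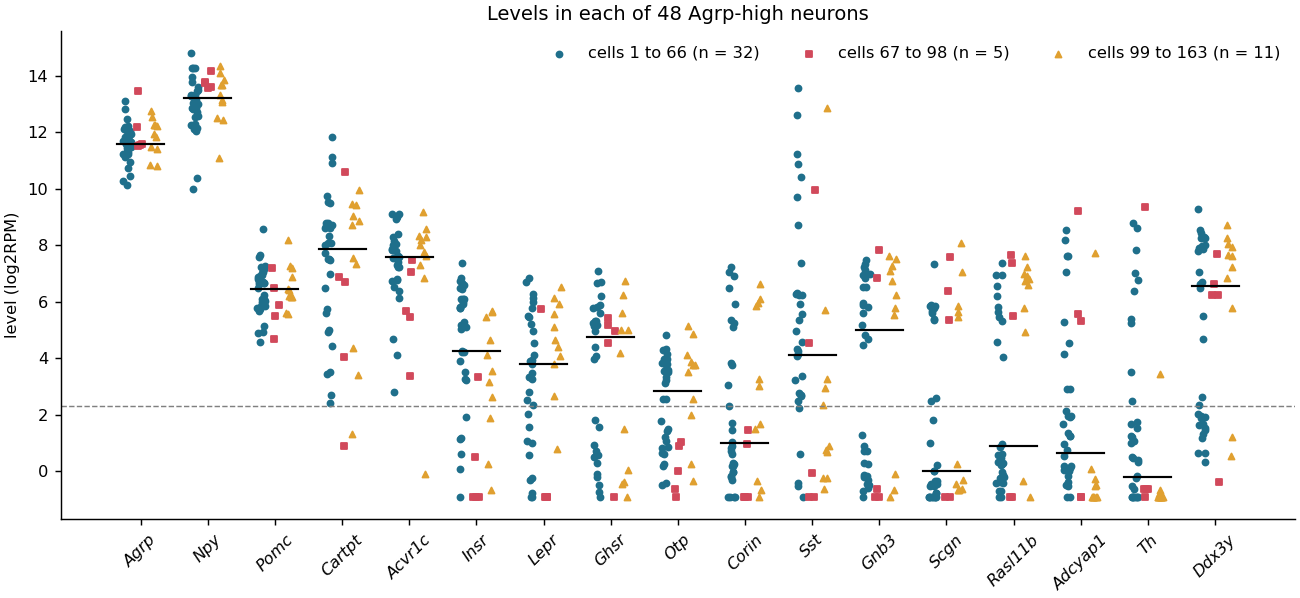
Level in log2RPM (vertical axis) of 17 genes (horizontal axis) in each of the 48 Agrp-high neurons, with the median as a black bar, the ranges of cell numbers by colour and shape, and 5 RPM as a dashed line. Agrp, Npy and Pomc are above the line in every neuron, whereas Ghsr, Gnb3, Scgn, Rasl11b and Ddx3y have neurons well above it and neurons below it.

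Most genes were either shared by the neurons or on in a varying part of them. Of the 12187 genes, 2868 (23.5%) were expressed in at least 46 of the 48 neurons, 1889 of them in all 48. Another 2125 were expressed in 37 to 45 neurons, 4552 (37.4%) in 12 to 36, 1582 in 5 to 11 and 918 in 1 to 4. In all, 12045 genes were expressed in at least 1 neuron. The spread differed between these classes: the median SD was 0.89 log2RPM for the 2868 genes and 2.45 log2RPM for the 4552. Of the 2868, 1675 (58.4%) were also expressed in at least 95% of the other neurons. A further 11 were expressed in fewer than 50% of them: Acvr1c, Npy2r, Ghr, Gpc4, Filip1, Flrt3, Ptprk, Gfra2, Vwa5a, Pdlim5 and 4732456N10Rik. These 11 were named after their values had been seen. The same shares over all 12187 genes are not given here, so neither count is read as high or low. Ghr, the growth hormone receptor, had 7.40 ± 0.82 log2RPM in the Agrp-high neurons and was expressed in 41.7% of the others. Npy2r, the autoreceptor for neuropeptide Y on these cells, had 8.61 ± 0.87 log2RPM and was expressed in 48.7% of the others.

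**Figure D2:**
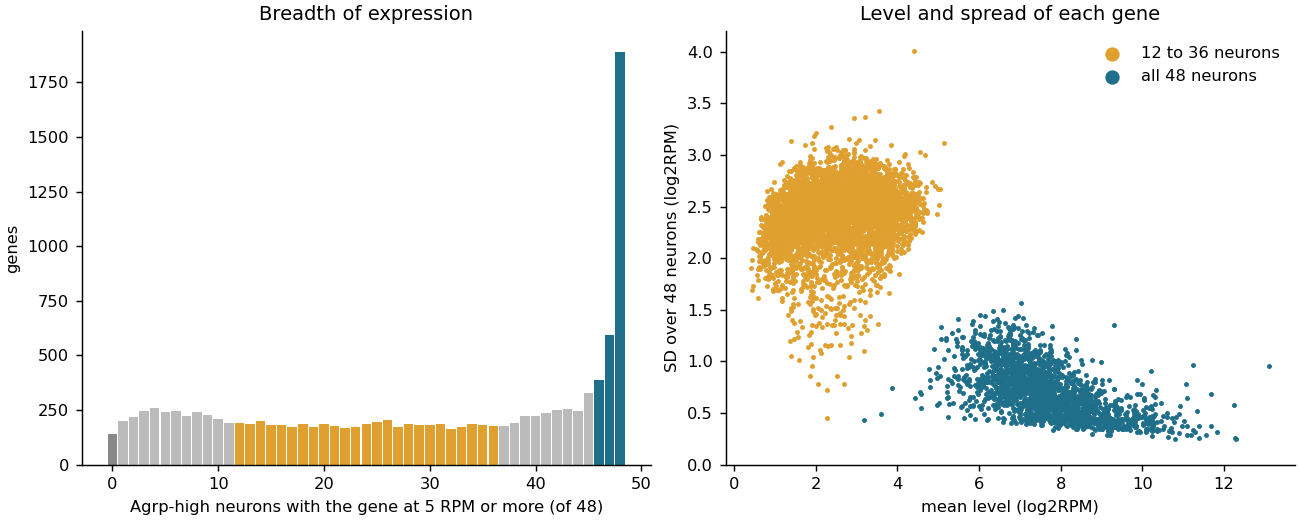
Left, number of genes (vertical axis) by the number of Agrp-high neurons that express them (horizontal axis), with genes of 46 to 48 neurons in blue and of 12 to 36 in amber. Right, SD over the 48 neurons against mean level, both in log2RPM, for genes on in all 48 (blue, SD 0.25 to 1.57) and in 12 to 36 neurons (amber, median SD 2.45).

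Among the genes on in all 48 neurons, SDs ran from 0.25 to 1.57 log2RPM with a median of 0.68. The 12 most even genes were mostly of basic cell function. Zwint, a kinetochore-associated protein, had a lowest, median and highest level of 11.68, 12.35 and 12.81 log2RPM. Slc25a4, the mitochondrial ADP/ATP carrier, had an SD of 0.25, the ubiquitin gene Ubb of 0.26, and the chaperones Hsp90ab1 and Hsp90aa1 of 0.26 and 0.29 log2RPM. The others were Prkar1a, a regulatory subunit of protein kinase A, the glycolytic enzyme Gapdh, the reticulon Rtn1, the malate dehydrogenase Mdh1, the signal peptidase subunit Spcs2, Selk and the proton pump subunit Atp6v0c, with SDs of 0.27 to 0.29 log2RPM. Over the other neurons the SDs of the 12 genes were between 0.47 and 2.31 log2RPM.

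The 12 most uneven genes that were still expressed in every neuron had SDs of 1.39 to 1.57 log2RPM. Poglut1, which adds glucose to Notch and other proteins, was lowest at 2.43 and highest at 9.20 log2RPM. Gadd45g, a stress- and activity-responsive gene, ranged from 2.51 to 9.36 log2RPM, and the class I histocompatibility gene H2-D1 from 3.05 to 9.06 log2RPM. Tnrc6a, a component of microRNA silencing, had medians of 7.0, 3.81 and 5.87 log2RPM in cells 1 to 66, 67 to 98 and 99 on, and Fam178a of 6.64, 3.08 and 6.62 log2RPM, so both were low in the middle range. The translation regulator Pdcd4 went the other way (4.65, 6.77 and 6.30 log2RPM). The remaining genes were Tmed7, Fam136a, Abcf3, Hid1, Jmjd1c and Pdxdc1.

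The lists of genes differed in how widely they were shared. Against 23.5% of all genes, 78 of 79 ribosomal protein genes (98.7%), 78 of 88 genes of the respiratory chain (88.6%) and 16 of 20 general neuronal genes (80%) were expressed in at least 46 neurons. So were 16 of 24 heat shock genes, 12 of 19 genes of axon growth and 10 of 16 genes of prohormone processing and secretory granules. The granins Scg2 and Chgb, the carboxypeptidase Cpe and the prohormone convertase inhibitor Pcsk1n were on in all 48, with SDs of 0.64, 0.70, 0.39 and 0.78 log2RPM. Of the convertases that cleave prohormones, Pcsk2 was expressed in 46 of 48 and Pcsk1 in 37 of 48 (SD 2.47 log2RPM).

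In the machinery of transmitter release, 20 of 41 genes (48.8%) were expressed in at least 46 neurons, against 23.5% of all genes. In 12 to 36 neurons 14 (34.1%) were expressed, near the 37.4% of all genes. The fusion proteins Snap25 and Vamp2 were on in every neuron, whereas the complexins Cplx1 and Cplx2, which clamp fusion, were expressed in 24 and 23, and the active zone proteins Bsn and Unc13a in 19 and 28. General markers were not all shared either. Rbfox3, which encodes the neuronal nuclear antigen NeuN, was expressed in 29 of 48 and the neurofilament gene Nefm in 24 of 48. A gene below 5 RPM in a neuron is not shown to be absent from it. Whether these general genes were missed or truly low in part of the neurons was not tested.

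Few ion channel and adhesion genes were shared by nearly all the neurons. Of 58 potassium channel genes, 1 was expressed in at least 46 neurons, 26 in 12 to 36 and 23 in 1 to 11. Of 46 sodium, calcium, HCN and TRP channel genes the counts were 4, 22 and 12. Of the cadherins and other adhesion genes, 15 (11.7%) were expressed in at least 46 neurons, 51 (39.8%) in 12 to 36 and 46 in 1 to 11. Fast transmitter receptors, with 11 of 37 in at least 46 neurons (29.7%), and genes of G-protein and cAMP signalling, with 28 of 88 (31.8%), lay near the 23.5% of all genes. Of 32 arcuate transcription factors measured, 2 were expressed in at least 46 neurons, among them Isl1 in all 48. Tbx3, Prox1, Six3 and Six6 were expressed in 42 to 45, and 11 of the 32 in none, against 1.17% of all genes. Bsx, a factor of the Agrp and Npy promoters, was expressed in 25 of 48, never at 32 RPM or more.

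Among the 4552 genes on in 12 to 36 neurons, 2126 reached 32 RPM in at least 12 neurons, a stricter level added after the data were seen, and 1275 of these also lay below 1 log2RPM in at least 12 others. The 20 genes with the largest SD had SDs of 3.07 to 4.01 log2RPM. Sst, which encodes somatostatin, had the largest. It was expressed in 34 of 48 neurons (70.8%, 95% interval 55.9% to 83%) with a lowest, median and highest level of -0.91, 4.10 and 13.55 log2RPM, and 18 neurons reached 32 RPM. In cells 1 to 66, 27 of 32 expressed it. Gnb3, a G-protein beta subunit, was expressed in 27 of 48 with 24 at 32 RPM or more, and in 10.4% of the other neurons. The calcium sensor Scgn was expressed in 19 of 48 (17 at 32 RPM or more), the small GTPase Rasl11b in 23 of 48 (20), the elastase Cela1 in 19 of 48 (15) and the Wnt co-activator Rspo4 in 22 of 48 (15). Each of these was rarer in the other neurons, at 10.4%, 13%, 3.48% and 10.4%. The monoamine oxidase gene Maob and the complement inhibitor gene Cd59a were expressed in 20 and 23 of the 48, and in 46.1% and 47% of the others.

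Of the rest of the 20, Chodl, Cd24a, Tagln2, Gm20425, Fam46a, Metrnl, Lypd6 and Cpt2, the mitochondrial carnitine palmitoyltransferase, were expressed in 20 to 30 neurons. The nuclear receptor Nr0b1 was expressed in 16 of 48 and its level rose with that of Sst (rho 0.48 over the 48) and fell with that of Fos (rho -0.51) and Cartpt (rho -0.51). Its medians in the 3 ranges of cell numbers were 0.06, 6.31 and -0.65 log2RPM.

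Of 18 other neuropeptide genes, 8 (44.4%) were expressed in 12 to 36 neurons, near the 37.4% of all genes. Adcyap1, which encodes PACAP, was expressed in 14 of 48 (29.2%, 95% interval 17% to 44.1%), at up to 9.21 log2RPM. The enkephalin gene Penk was expressed in 22 of 48, galanin (Gal) in 15 of 48, nociceptin (Pnoc) in 14 of 48, the C-type natriuretic peptide gene Nppc in 14 of 48, dynorphin (Pdyn) in 6 of 48 and neurotensin (Nts) in 6 of 48. At 32 RPM the counts were 10, 5, 7, 2, 6, 2 and 1. The most common of the list was Nucb2, the precursor of nesfatin (45 of 48). Th, the rate-limiting enzyme of dopamine synthesis, was expressed in 12 of 48 neurons (25%, 95% interval 13.6% to 39.6%) and in 3.48% of the others, and reached 9.35 log2RPM. At 32 RPM, 6 neurons expressed both Th and Sst, 3 Th alone and 12 Sst alone. Ddc, the next enzyme of the pathway, was expressed in 25 of 48, and the vesicular monoamine transporter Slc18a2 in 4, never at 32 RPM or more.

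Receptors for hormones of energy balance ranged from shared to rare. The glucocorticoid receptor Nr3c1 and the thyroid hormone receptor Thra were on in all 48 (7.30 ± 1.03 log2RPM and 6.09 ± 0.87 log2RPM), as was Ghr. The calcitonin receptor Calcr was expressed in 42 of 48 and in 24.3% of the others. The leptin receptor Lepr (chromosome 4, 101717403 to 101815352) was expressed in 33 of 48 (68.8%, 95% interval 53.7% to 81.3%) with a lowest, median and highest level of -0.91, 3.81 and 6.86 log2RPM, and the insulin receptor Insr in 35 of 48 (72.9%, 95% interval 58.2% to 84.7%) with -0.91, 4.25 and 7.38 log2RPM. Ghsr split the neurons, with 21 at 32 RPM or more and 19 below 5 RPM. The melanocortin receptor Mc3r was expressed in 33 of 48, and Mc4r, Glp1r and Esr1 in 0, 1 and 1. In the other neurons Esr1, the estrogen receptor, was expressed in 62.6%, and the prolactin receptor Prlr in 84.3% against 17 of 48 here.

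The receptors occurred in every combination. Lepr and Ghsr were both expressed in 21 neurons, Lepr alone in 12, Ghsr alone in 8 and neither in 7, and the rho of their levels was 0.39 (0.30 once depth and number of genes were fitted out). Lepr and Insr were both expressed in 25 neurons and neither in 5, with a rho of 0.11. Agrp had a rho near 0 with Lepr (0.01) and Ghsr (-0.0035). Of 31 genes of leptin and insulin signalling, Stat3, Irs4, Gsk3b and Ptpn11 were among those expressed in at least 46 neurons, and Foxo1, Socs2 and Pik3ca in 44 or 45. Jak2, the kinase bound to the leptin receptor, was expressed in 14 of 48 and the feedback inhibitor Socs3 in 13 of 48. Foxo1, a factor that insulin keeps out of the nucleus, was expressed in 29.6% of the other neurons.

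Over all genes, 23.5% were expressed in at least 46 neurons and 21% in 1 to 11. Of 24 neuropeptide receptor genes, Npy2r and the PACAP receptor Adcyap1r1 were expressed in at least 46 neurons, the nociceptin receptor Oprl1 in 41, and 14 in 1 to 11. The melanin-concentrating hormone receptor Mchr1 was expressed in 25 of 48 with 21 at 32 RPM or more, the corticotropin-releasing hormone receptor Crhr1 in 21 of 48 with 11, and the orphan receptor Gpr83 in 19 of 48 with 14. Of 20 amine, acetylcholine, adenosine and cannabinoid receptors none was expressed in at least 46 neurons and 12 in 1 to 11, the histamine receptor Hrh3 was the most common (34 of 48), and Htr2c was expressed in 1 and Htr1a in 16. Among the other neurons Crhr1 and Htr1a were expressed in 7.83% and 7.83%, and Htr2c in 29.6%.

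Immediate-early genes are those that neurons switch on with activity or stress. Of 29 measured, Jund, Rgs2, Jun and Klf6 were expressed in at least 46 neurons and 16 in 1 to 11, against 23.5% and 21% of all genes. Fos was expressed in 13 of 48, with a lowest, median and highest level of -0.91, 0.99 and 8.47 log2RPM, and Egr1 in 12 of 48, with -0.91, -0.57 and 4.89 log2RPM. Both were expressed in 8 neurons and neither in 31. The mean over the 29 genes was 0.29 to 2.50 log2RPM in the 48 (SD 0.60). In the others it was -0.33 to 8.70 log2RPM (SD 1.80), so the highest means of the sort lay outside the Agrp-high neurons. Within the Agrp-high neurons this mean differed between the ranges of cell numbers. Its median was 1.94 log2RPM in those from 99 on and 0.93 log2RPM in cells 67 to 98, with cells 1 to 66 in between. The part of the ranges in the spread of these genes was not tested.

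A few genes were high in 1 to 4 neurons. The 12 with the highest level in any neuron were Itih3, Qrfpr, Tctn1, Pcdhb9, Rgs8, Zbtb9, Oprk1, Ntsr2, Mobp, Chek2, Smco3 and F2rl2, with highest levels of 7.26 to 8.27 log2RPM. The receptor for the peptide 26RFa, Qrfpr, was expressed in 4 neurons and the kappa opioid receptor Oprk1 in 3, all 3 at 32 RPM or more. The protocadherin Pcdhb9 and the thrombin receptor F2rl2 reached 32 RPM in 4 and 4 neurons. These 12 genes were, in the other neurons, expressed in 6.09% to 23.5%.

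To see which genes varied together, Spearman's rho over the 48 neurons was computed for every pair of the 9545 genes expressed in at least 12 of them. Of 45548740 pairs, 783 (0.00172%) had a rho of at least 0.7 and 16 (3.51e-05%) a rho of -0.7 or lower, and the median of all pairs was 0.01. The cells of each pair share library, depth and number of genes, so these values are a description. Among the 783 pairs, 43 were of genes with overlapping loci, whose reads the counting may have shared between them, as for Gnas and Gm20721 (rho 0.98), Sla2 and 1110008F13Rik (0.97), Jund and Gm11175 (0.97) and Tmem88 and Naa38 (0.94). In 361 pairs, 1 of them overlapping, both genes were of the ribosome or the respiratory chain, which left 380 others. Rps27 and its near-copy Rps27rt (0.94) are uncertain in the same way as overlapping loci. Over the other neurons, 493 of the 783 pairs (63%) also had a rho of at least 0.5, against 0.0145% of all pairs. The 16 lowest pairs did not carry over in this way, with a median rho of -0.11 in the other neurons.

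The rest of the 15 highest pairs named by rule were also of overlapping loci (Pgs1 and Dnah17, Cabp7 and Zmat5, 2200002D01Rik and Yif1b, Rrp7a and Serhl, Ppib and Snx22, Fbxo22 and Nrg4, E130208F15Rik and Sdhaf1, Tap2 and Gm15821, rho 0.88 to 0.94), or were Rpl37a with Rps27 (0.90) and Mmp12 with 9930111J21Rik2 (0.88). None of the pairs given from here on has overlapping loci, and most were chosen after their values had been seen.

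Linking all pairs with a rho of at least 0.7, other than overlapping genes, gave a group of 4: Agrp, Npy, the cysteine protease inhibitor cystatin C (Cst3, chromosome 2, 148871721 to 148875692) and Resp18 (chromosome 1, 75272198 to 75278415), a protein of neuroendocrine secretory granules. Cst3 was on in all 48 with a lowest, median and highest level of 9.57, 10.56 and 11.63 log2RPM, and Resp18 with 10.98, 12.21 and 13.49 log2RPM. Agrp had a rho of 0.77 with Cst3, 0.68 with Npy and 0.65 with Resp18, and Cst3 with Resp18 0.85. The values were similar when each range of cell numbers was centred (0.75, 0.65, 0.60 and 0.81) and after a fit on depth and number of genes (0.73, 0.65, 0.57 and 0.78). In the other neurons Cst3 and Resp18 still varied together (0.72), and Agrp with Npy (0.95), but the rho of Agrp was -0.25 with Cst3 and -0.24 with Resp18. The rest of the 8 genes nearest to Agrp were Atp5o (0.58), Aurkaip1, Mrps15, Cacybp and Psma2 (0.53). Agrp also had a rho of 0.41 with the mean of the respiratory chain genes and 0.38 with that of the ribosomal protein genes.

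At the other end, the 8 genes that fell most as Agrp rose were Crot (rho -0.56), a carnitine acyltransferase of peroxisomes, Fam98a, Ank1, Fam73b, Scap, the escort of the sterol-sensing SREBP factors (-0.50), Slx4, Chst11 and Tmco6 (-0.48). All 8 were expressed in 12 to 36 of the neurons, Scap in 33 and Crot in 13. In the other neurons the rho of these genes with Agrp was 0.06 to 0.33.

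**Figure D3:**
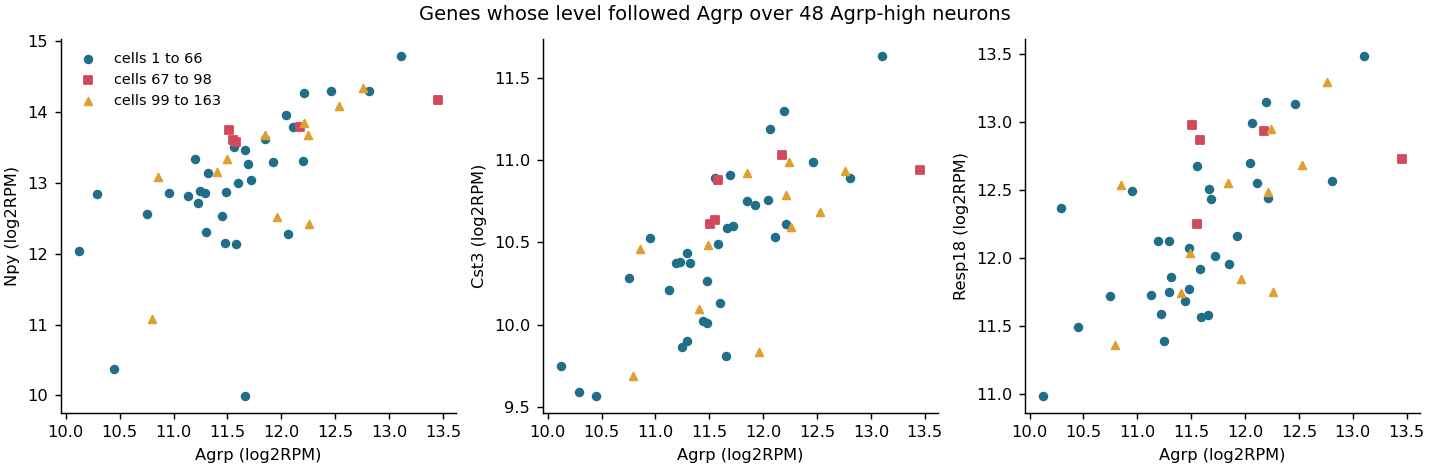
Level of Npy, Cst3 and Resp18 (vertical axes) against that of Agrp (horizontal axis), in log2RPM, with 1 point for each of 48 Agrp-high neurons and the ranges of cell numbers by colour and shape. Points rise from left to right in each panel (rho 0.68, 0.77 and 0.65).

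The promoters of Npy, Cst3 and Resp18 are shown because these 3 genes and Agrp formed 1 linked group, in which Agrp reached the limit with Cst3 only. Each runs from 250 bases before to 50 after the start of the gene in RefSeq (GRCm38.p6), 5′ to 3′ on the gene's strand. Capitals mark the GC box GGGCGG on either strand. Npy is at chr6:49822460-49822759 (plus strand), Cst3 at chr2:148875463-148875762 (minus strand) and Resp18 at chr1:75278366-75278665 (minus strand). Most of the Cst3 window lies inside the Cst3 locus given above, which starts further upstream than in RefSeq. The Agrp promoter is not shown.
Npy: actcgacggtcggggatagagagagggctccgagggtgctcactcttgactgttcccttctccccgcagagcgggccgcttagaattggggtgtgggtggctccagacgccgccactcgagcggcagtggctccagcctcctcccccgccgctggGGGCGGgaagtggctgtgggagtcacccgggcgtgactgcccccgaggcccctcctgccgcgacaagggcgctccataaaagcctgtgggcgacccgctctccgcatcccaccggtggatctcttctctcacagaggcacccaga
Cst3: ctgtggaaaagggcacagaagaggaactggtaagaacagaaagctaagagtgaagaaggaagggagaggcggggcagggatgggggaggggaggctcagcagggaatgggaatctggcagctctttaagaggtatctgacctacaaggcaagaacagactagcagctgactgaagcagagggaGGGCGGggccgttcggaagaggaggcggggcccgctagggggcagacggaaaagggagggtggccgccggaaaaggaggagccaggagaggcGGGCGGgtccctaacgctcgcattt
Resp18: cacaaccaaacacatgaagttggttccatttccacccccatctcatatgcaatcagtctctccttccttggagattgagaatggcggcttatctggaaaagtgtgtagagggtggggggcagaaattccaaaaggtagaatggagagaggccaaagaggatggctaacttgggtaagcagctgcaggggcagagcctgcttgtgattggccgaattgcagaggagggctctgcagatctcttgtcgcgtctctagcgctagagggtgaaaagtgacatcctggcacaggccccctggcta
The GC box occurred 1 time in the Npy window and 2 times in that of Cst3, and 35.7% of 32851 promoters of this length hold it. The E-box CANNTG was in the windows of Cst3 and Resp18 and in 72.3% of all. The TATA box TATAAA, the cAMP response core TGACG, the STAT site TTCNNNGAA, the forkhead site GTAAACA and the homeobox core TAATTA, searched on both strands like the others, were in none of the 3 windows, and no motif searched was in all 3.

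The largest linked group held 47 genes of the ribosome, 33 of the respiratory chain and 33 others. Within the list of 79 ribosomal protein genes, the median rho over all pairs was 0.45, and within 88 respiratory chain genes 0.25, against 0.01 over all pairs. The same medians over the other neurons were 0.45 and 0.26. No other list of 30 or more pairs exceeded 0.13 in the Agrp-high neurons. Rplp1 had the most partners (43), followed by Rps29 (41) and Rpl37 (40), and of the respiratory chain Atp5k (29). Usmg5, a small protein of ATP synthase, had 27, Cox17, a copper chaperone of cytochrome oxidase, 22, the prefoldin subunit Pfdn5 26 and the ubiquitin-like Nedd8 12.

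The mean level of the 79 ribosomal protein genes ran from 6.87 to 8.26 log2RPM (median 7.56), and that of the respiratory chain from 7.30 to 8.55 log2RPM (median 7.71). The 2 means had a rho of 0.79 over the 48 neurons. The ribosomal mean had a rho of -0.01 with depth and was lower in neurons with more expressed genes (rho -0.57). Its rho was -0.48 with the mean of the immediate-early genes, -0.44 with that of transmitter release and -0.43 with that of heat shock genes. Transcript length moved with it: with genes split into 4 sets of equal size by their median transcript length, the median rho with the ribosomal mean was -0.02, -0.04, -0.08 and -0.10 from the shortest to the longest, with ribosomal genes left out. The part of transcript length and of the number of genes was not tested.

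**Figure D4:**
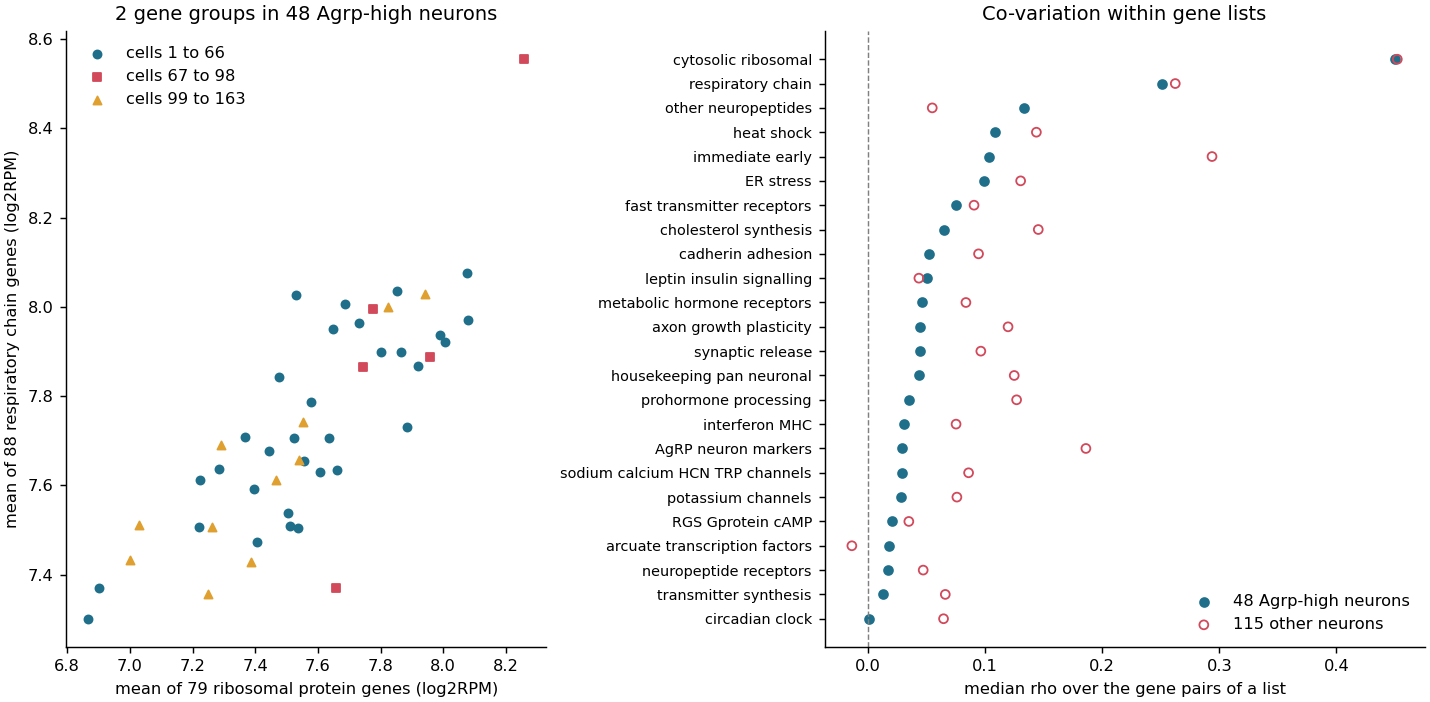
Left, mean level of the respiratory chain genes against that of the ribosomal protein genes in each of 48 Agrp-high neurons, in log2RPM. Right, median rho over all gene pairs within each list, over the Agrp-high neurons (filled) and the other neurons (open), where the ribosomal (0.45) and respiratory (0.25) lists lie apart from the rest.

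The second group held 39 genes. Pcsk1n, which encodes proSAAS, had the most partners (14), then the synaptic GPI-anchored protein Ly6h (13), the co-repressor Aes (10) and the actin-severing cofilin Cfl1 (9). Next were Sepw1 (8), the actin-binding Tmsb10 (8), the G-protein subunit Gng3 (7) and Vstm2l (7). Gng3 and Tmsb10 had a rho of 0.85. Gng3 had a lowest, median and highest level of 6.25, 8.11 and 9.47 log2RPM and Tmsb10 of 3.17, 5.42 and 7.22 log2RPM. The rho was 0.84 when the ranges were centred and 0.70 in the other neurons. Sepw1 with Cfl1 had 0.82, Ly6h with Pcsk1n 0.77, Prkaca, the catalytic subunit of protein kinase A, with Cfl1 0.76, and the lysosomal precursor Psap with the mitophagy-linked Fkbp8 0.82. Outside the Agrp-high neurons these were 0.74, 0.52, 0.42 and 0.43. The rho of Pcsk1n with the number of expressed genes was -0.42, and of Cfl1 -0.18.

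The third group joined 18 genes of unlike known functions: Mmp12, a macrophage elastase, the lipoprotein lipase Lpl, Caps2, Six2, Grk4, Ces2b, Cpa6, Hsd3b2, Park2, Snhg11, Vmn1r58 and 7 predicted genes. Mmp12 and 9930111J21Rik2 had 13 partners each. Mean levels ran from 1.16 to 11.24 log2RPM, the highest that of Snhg11. The lowest, median and highest level was -0.91, 2.47 and 4.47 log2RPM for Mmp12 and -0.91, 3.57 and 5.32 log2RPM for Caps2, and their rho was 0.85. The median of Mmp12 was 2.75 log2RPM in cells 1 to 66 and -0.62 log2RPM in cells 67 to 98, and the rho centred in the ranges was 0.77. The value elsewhere in the sort was 0.68. Whether the values of this group are expression of the named loci is uncertain. Predicted genes and multicopy families can share reads, and whether reads were shared here was not tested.

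The fourth group, of 8 genes, moved with the ranges of cell numbers. It joined Tenm1, a teneurin adhesion protein, Penk, Slc17a6, Pld5, Eya3, Zfp763 and the glycine receptor subunit Glra3, among others. Tenm1 and Penk had a rho of 0.76, and Tenm1 and Slc17a6 of 0.73. The medians of Tenm1 were 1.93, -0.91 and 0.73 log2RPM in the 3 ranges, and of Penk 3.02, -0.64 and -0.18 log2RPM. Centred in the ranges, the rho was 0.70 for Tenm1 and Penk and 0.60 for Tenm1 and Slc17a6. After the fit on depth and number of genes, these pairs had 0.65 and 0.76. Over the other neurons, without centring or fit, their rho was 0.11 and 0.28. Tenm1 was higher in shallower libraries (rho with depth -0.52), as was Penk (-0.45), and no neuron had Tenm1 at 32 RPM. The median of Slc17a6 in the other neurons was 6.68, 6.59 and 2.87 log2RPM in the 3 ranges. The part of depth and of the ranges in this group was not tested.

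Fos and Egr1 varied together as well (rho 0.70 in the 48, 0.62 centred in the ranges and 0.87 in the other neurons). Gad1 and Gad2, which make the same transmitter, did not vary together (rho 0.04).

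The lowest rho was between Pnoc and Scg3, a granin of secretory granules (-0.78). Scg3 was expressed in all 48 neurons, over a range of 6.08 to 9.54 log2RPM. Pnoc was expressed in 14 and below the cut-off in the other 34. Most of its ranks therefore rest on low values, whose source was not tested. The rho was -0.54 after the fit on depth and number of genes and -0.01 in the other neurons. The peptidase gene Prep fell as Rpl37 rose (-0.75, and -0.54 after that fit). The other low pairs were Mrpl57 with Rasip1 (-0.74), Ube2j1 with Usp48 (-0.73), Gas2l1 with H1fx (-0.72), Ndfip1 with Tanc1 (-0.72, and -0.44 centred in the ranges), Ldhb with Yeats2 (-0.72), Fnbp1l with Gnas and Gm20721 (both -0.71) and Uhmk1 with Rpl4 (-0.71). Of these 10 pairs, only Gas2l1 and H1fx were seldom expressed together, with both expressed in 1 neuron, Gas2l1 alone in 23, H1fx alone in 14 and neither in 10. Their rho in the other neurons was 0.07.

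**Figure D5:**
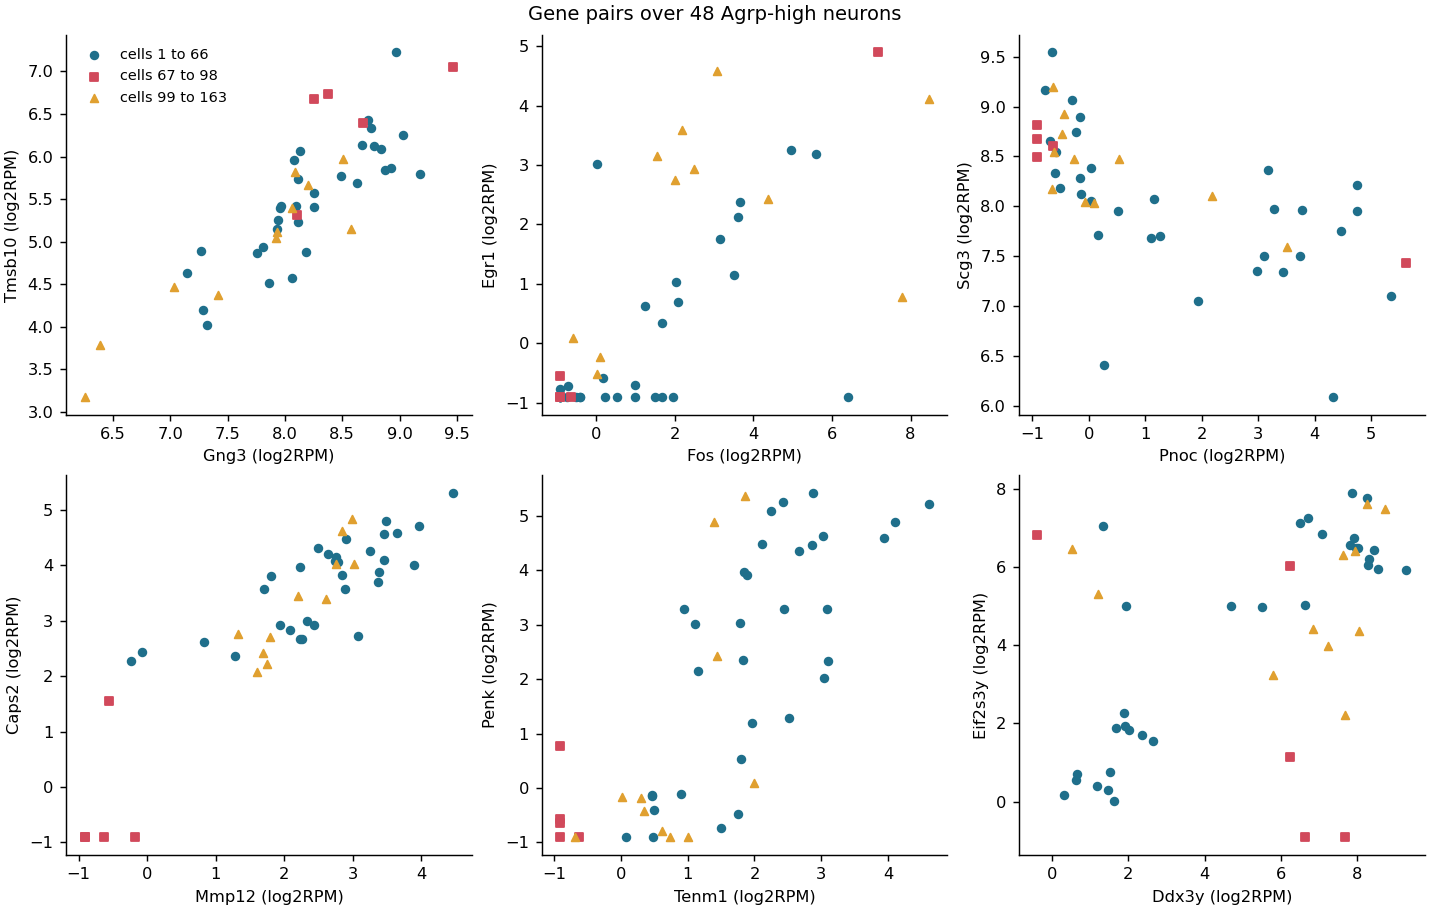
Levels in log2RPM of 6 pairs of genes, with 1 point for each of 48 Agrp-high neurons and the ranges of cell numbers by colour and shape. Gng3 and Tmsb10 rise together in cells 1 to 66 and in those from 99 on. Pnoc and Scg3 run against each other (rho -0.78), with Pnoc below the cut-off of expression in 34 of the 48 neurons. Tenm1 and Penk have their lowest medians in cells 67 to 98. Low levels of both Ddx3y and Eif2s3y set apart 13 neurons of cells 1 to 66.

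Against the other neurons, 1054 of the 12187 genes (8.65%) had a mean at least 1 log2RPM higher in the Agrp-high neurons and 358 (2.94%) at least 1 log2RPM lower, without a test. The median difference over all genes was 0.19 log2RPM, and after recentring each cell on 2711 widely expressed genes it was -0.03, with 663 genes higher and 561 lower. Agrp was 8.55 log2RPM higher by choice (8.33 recentred) and Npy 8.72 higher (8.50), and the difference of Pomc was -2.80 (-3.02). Before recentring, cholesterol synthesis genes had a median difference of 0.80 log2RPM, with 6 of 24 genes at least 1 higher and none at least 1 lower, and arcuate transcription factors of -0.61 log2RPM, with 7 of 32 higher and 11 lower.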

How the data were processed

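Single hypothalamic cells positive for GFP were sorted into 96-well plates through a singlet gate, and each gave 1 RNA-seq library. According to the submitters' processing notes, reads were demultiplexed with CASAVA 1.7, aligned to GRCm38 with TopHat2 2.0.11 and counted with Cufflinks 2.2.1, then normalized with edgeR and limma. Values are log2 RPM, offset by a small prior count, and the authors deposited them for 12187 genes and they were used as given. Whether the counting used strand is not given in the sources used here.

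Of 163 cells, the 48 with Agrp at 10 log2RPM or more were set beside the other 115. The members, lists and named genes were chosen with earlier results of these data known. A gene was expressed at 5 RPM, the linear value being 2 to the power of the log2RPM. Depth was read from the spacing of low values, which gave whole reads (99.3% of values of 1 to 20 reads within 0.1 of a whole number). Shares have exact Clopper-Pearson 95% intervals. Pairs were described by Spearman's rho, and linked groups join genes with rho of at least 0.7 whose loci do not overlap. Depth fits were linear, on log2 depth and number of genes. The genes named were, by rule, the markers, the 12 most and 12 least even genes on in all 48, the 20 with the largest SD on in 12 to 36, 12 rare ones, the 15 highest and 10 lowest pairs, the 8 nearest to and farthest from Agrp, the genes with most partners in 5 groups and examples from lists. Transcript lengths came from GENCODE for 99.9% of the 9545 genes. Alternatives were other limits, cut-offs, cell sets, scalings and correlation measures. Some genes are not reported here. Functions were tested on simulated data. Python 3.11.15, numpy 2.4.6, pandas 2.3.3, scipy 1.17.1 and matplotlib 3.10.9 were used.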

Additional observations from a re-analysis of the deposited data

How the results depend on the processing

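No paired analysis was possible because all cells form 1 group. The number of genes found in nearly all of the neurons was 2868, but 4738 at a cut-off of 1 RPM and 1667 at 32 RPM. The number on in only some stayed within 1.5 times of 4552 under every alternative run. Pairs with a rho of at least 0.7 numbered 783, and 1505 with members limited to Agrp of 11 log2RPM (41 neurons), 1557 in cells 1 to 66 alone (32 neurons), 1877 without the 13 neurons low in Y-linked genes, 1800 with Pearson's r and 302 after the fit on depth and number of genes, so this count is not a stable quantity. It was 765 without the 12 neurons with the fewest genes (36 neurons) and 658 without the neurons with 3 markers of another cell type (42 neurons). The cause was not tested. Genes at least 1 log2RPM higher than in the other neurons numbered 1054, but 310 with a pseudocount of 5 RPM and 663 after recentring, where 54.2% of the genes past 1 were higher in place of 74.6%. The 32 RPM cut-off, cells 1 to 66 and the set without the 13 neurons were chosen after seeing the data. Of 47 pairs recomputed under each alternative none changed sign, but the rho of Agrp with Pomc, Lepr and Ghsr, all near 0, did: in cells 1 to 66 alone it was -0.14, -0.12 and 0.14. The pairs Ndfip1 with Tanc1 (-0.44) and Ube2j1 with Usp48 (-0.55) weakened when centred in the ranges. Of 29 shares of expressing neurons, 19 left their interval at 1 RPM and 9 at 32 RPM. At 1 RPM those of Corin, Otp, Maob, Th and Adcyap1 were 68.8%, 89.6%, 81.2%, 47.9% and 64.6%. Thinning all libraries to the about 1976000 reads of the shallowest neuron gave 2896, 4549 and 673 for the first 3 counts. Depth limits a call at 5 RPM most in that library.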

Other observations

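Of 20 clock genes measured, 2 (10%) were expressed in at least 46 of the Agrp-high neurons, against 23.5% of all genes. They were Nr1d1 and Csnk1e. Another 9 were expressed in 37 to 45, against 17.4% of all genes, among them Dbp, Tef, Bhlhe40, Clock, Per3 and Nr1d2 in 38 to 43. Per1, Per2 and Cry1 were expressed in 8, 2 and 10. Of 24 cholesterol synthesis genes, 6 (25%) were expressed in at least 46 neurons, near the 23.5% of all genes. They were Hmgcs1, Fdft1, Msmo1, Pmvk, Fdps and Cyp51. Lss, Tm7sf2 and Hsd17b7 were expressed in 13, 12 and 9. Within neither list did the genes vary together (median rho 0.00 and 0.06).

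Of 23 interferon and histocompatibility genes, B2m and H2-D1 were expressed in all 48 neurons, and B2m in 69.6% of the other neurons. Irf9, part of the factor that interferon activates, was expressed in 45 of 48 and in 47.8% of the others. The interferon-induced genes Ifit1, Gbp7, Rtp4 and Usp18 were expressed in 12, 14, 8 and 8 neurons. Among 25 genes of endoplasmic reticulum stress, the chaperones Hspa5, Pdia3, Hsp90b1 and Calr were on in every neuron with SDs of 0.48 to 0.58 log2RPM, and Atf4 and Ddit3 were expressed in 45 and 42.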
